A study of Saccharomyces cerevisiae with 27 samples.

Results

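The genes described here are the 33 genes of the budding yeast proteasome subunits and RPN4 (YDL020C), the gene of the transcription factor that activates them. They were chosen by name and make up 34 of the 6746 genes counted, and all 34 were tested. The subunits were grouped by their place in the complex, as 7 genes of the 20S alpha ring, 7 genes of the 20S beta ring, 6 RPT genes and 13 RPN genes with SEM1 among them.

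The proteasome degrades proteins marked with ubiquitin. Its 20S core is a barrel in which the beta rings hold the proteolytic sites and the alpha rings gate the entry, and the 19S regulatory particle recognises ubiquitin chains, removes them and unfolds the substrate with the RPT ATPases. Rpn4 binds a short promoter sequence known as the proteasome-associated control element (PACE), and because Rpn4 is itself a short-lived substrate of the proteasome, the pair forms a feedback loop. In yeast the RPN4 promoter is a known target of the heat shock factor Hsf1, of Pdr1 and Pdr3, and of Yap1.

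Messenger RNA was sequenced in 27 libraries from wild-type cells and 3 histone H4 mutants named S47D, T30A and T30D. There were 9 groups with 3 biological replicates in each. Aspartic acid at serine 47 or threonine 30 of histone H4 mimics phosphorylation, and alanine at threonine 30 cannot be phosphorylated. All 4 strains were sampled without stress in YPD at 30°C, wild-type and H4-S47D cells also after 15 min in 0.4 M NaCl (osmostress), and H4-T30A, H4-T30D and wild-type cells also after 10 min at 39°C (heat). The labels give every strain as a MATa BY4741 derivative that carries his3Δ200, trp1Δ63, can1::MFA1pr-HIS3 and deletions of leu2, lys2, ura3 and met15. In every strain, wild type included, the labels give hht1-hhf1 as replaced by NatMX4 and the hht2-hhf2 locus as replaced by a synthetic histone cassette marked with URA3. The same 3 wild-type libraries without stress were the controls of every mutant and of both stresses, so these comparisons share them.

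Library totals ran from 10212777 to 19503694 counts. Levels are given as CPM (counts divided by the TMM-scaled library size and multiplied by 1e6), and the members had between 285 counts (SEM1, YDR363W-A, the smallest subunit gene) and 8014 counts (RPN2) in a library. The MATa gene STE2 averaged 801 CPM and the MATα gene MFALPHA1 0.39 CPM in non-stressed wild-type cells. The MATα genes stayed low but moved with the mutants, as all 3 listed were called higher without stress in H4-S47D (MFALPHA1 4.05 CPM) and in H4-T30D cells (1.72 CPM) and none in H4-T30A cells, while 3 of 5 MATa genes were lower in H4-S47D and 5 of 5 in H4-T30D cells (STE2 608 and 661 CPM). The 5 MATa genes were also lower in both wild-type stresses. Their part in the members' results was not tested. Labels and data disagreed on the strain markers of the H4-S47D libraries. TRP1 ran from 189 to 320 CPM in them and from 0.069 to 3.96 CPM in all others, and URA3 from 429 to 563 CPM against 39.4 to 132 CPM. Differences between H4-S47D and wild-type cells therefore cannot be told apart from a difference in strain markers. The labelled deletions LEU2, LYS2 and MET15 together had 0 to 4 counts in 24 libraries, but 132 counts in wild-type heat replicate 3, 124 in osmostressed H4-S47D replicate 1 and 39 in non-stressed H4-T30D replicate 2. Without these 3 libraries the members called higher numbered 29 after heat (29 with them), 25 for heat against osmostress (28), 9 for the H4-S47D interaction (10) and 3 for the H4-T30D interaction (4), and the other comparisons that hold them are given with both counts.

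Most subunit promoters carried the PACE, which is why the sequences are shown first. The sequence searched was GGTGGCAAA on both strands, in the 500 bases before the start codon in the R64 genome (RefSeq). It was found once in each of 27 of the 33 subunit genes (81.8%). Of 6002 promoters of coding genes, 99 held it (1.65%), and these 99 include the 27. The element is already known from proteasome promoters, as its name says, so these shares are a description and not a test. All 27 matches lay between 183 and 76 bases upstream of the start codon, 19 on the strand of the gene and 8 on the other. The stretches below belong to 7 of the subunit genes described by library or in the mutants further on, read along the gene with the PACE or its reverse complement in capitals.
RPN5, chrIV:190776-190804: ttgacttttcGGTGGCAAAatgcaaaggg
RPN3, chrV:196843-196871: acgaaaaacaTTTGCCACCcaagaaagag
RPN2, chrIX:220801-220829: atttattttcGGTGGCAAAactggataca
PRE6, chrXV:255218-255246: cgaagattctTTTGCCACCggaagggaaa
PUP2, chrVII:999226-999254: aaccaagaccGGTGGCAAAagagtaacct
PRE9, chrVII:761223-761251: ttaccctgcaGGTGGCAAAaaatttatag
RPN12, chrVI:252398-252426: ctacacattaTTTGCCACCcattgaaatt

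The 6 subunit genes without a match were PRE5, PUP1, RPN8, RPN10 (YHR200W), RPN13 and SEM1. RPN4 had none either. Its promoter held the heat shock element letters TTCNNGAA at positions -348 and -21 from the start codon, and the Yap1 recognition letters TTAGTAA on the other strand at position -374. In the stretch with the distal pair, capitals mark first the reverse complement of the Yap1 letters and then the heat shock letters. The part of these letters in the RPN4 responses was not tested.
RPN4, chrIV:417039-417092: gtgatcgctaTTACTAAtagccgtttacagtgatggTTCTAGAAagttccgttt
TTCNNGAA occurred in 21.2% of all promoters of this length and in 4 of the 33 subunit promoters (PRE9, PUP2, PUP1 and RPT3). TTAGTAA occurred in 11.8% of all promoters and in 5 of the subunit promoters. The stress response element AGGGG was present in 36.4% of the subunit promoters and 34.1% of all promoters, and not in that of RPN4. The letters TCCGCGGA, 1 form of the Pdr1 and Pdr3 site, were not in the RPN4 window.

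**Figure D1:**
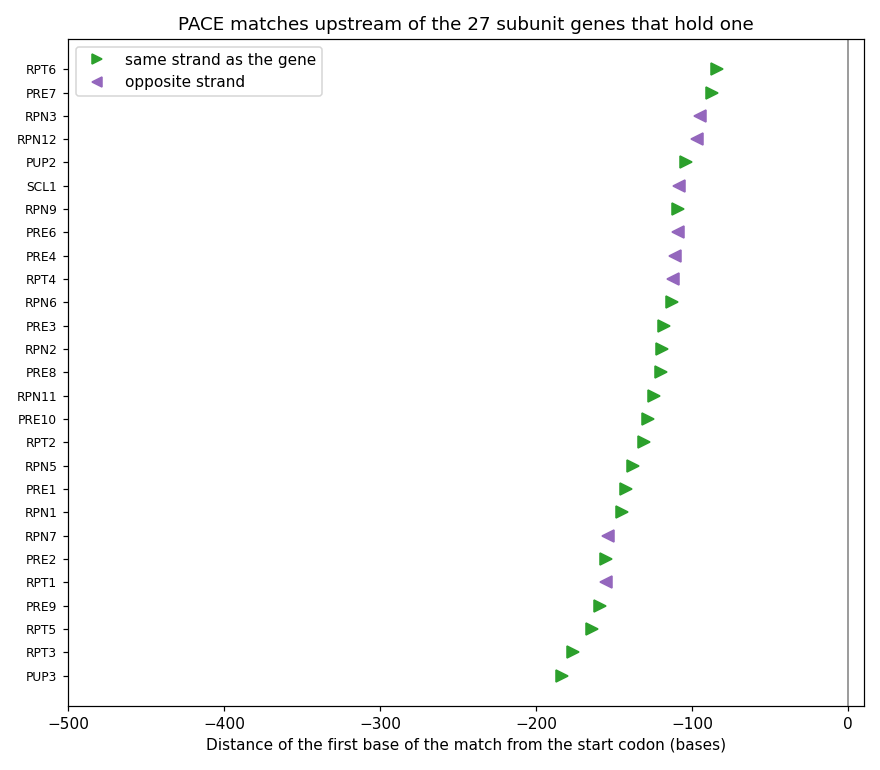
Position of the PACE match in the 27 subunit promoters that held one, as the distance of its first base from the start codon (horizontal axis, bases), with the marker pointing right where the match lay on the strand of the gene. All matches lie within 183 bases of the start codon.

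RPN4 was the member with the largest change in both stresses. In non-stressed wild-type cells it stood at 61.3, 58.2 and 56.2 CPM in replicates 1 to 3. After heat it stood at 382, 414 and 409 CPM, a 6.86-fold rise (log2 fold change 2.78 ± 0.07 SE, edgeR quasi-likelihood test, adjusted p = 1.23e-25). After osmostress it stood at 143, 149 and 157 CPM, a 2.55-fold rise (log2 fold change 1.35 ± 0.06, edgeR adjusted p = 5.46e-18). No library of one condition overlapped another, and heat exceeded osmostress by 1.42 on the log2 scale (± 0.06, edgeR adjusted p = 2.49e-18). RPN4 was also the only member to pass the test against 2-fold, in both stresses, among the 12.8% of genes that passed it upwards under osmostress and the 15.8% under heat. No member was among the 12.5% and 15.4% of genes that passed it downwards.

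Across the 9 groups RPN4 fell into 3 ranges that did not overlap. The 3 heat groups held the top. H4-T30D cells at 407 to 416 CPM overlapped wild-type cells, whereas H4-T30A cells at 319, 318 and 339 CPM lay below both. Osmostressed wild-type cells came next, and osmostressed H4-S47D cells, at 135, 139 and 136 CPM, lay below them in every library without passing the test (log2 difference -0.13 ± 0.06, edgeR adjusted p = 0.0823; 0.12 with library totals alone). Non-stressed H4-S47D cells, at 95.3, 81.8 and 93.9 CPM, stood above the other 3 non-stressed groups, which overlapped one another between 54.0 and 62.6 CPM. Per kb of coding length, RPN4 averaged 36.7 CPM in non-stressed wild-type cells, below each of the 33 subunit genes, and 252 CPM after heat, when the subunit median was 202 CPM.

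**Figure D2:**
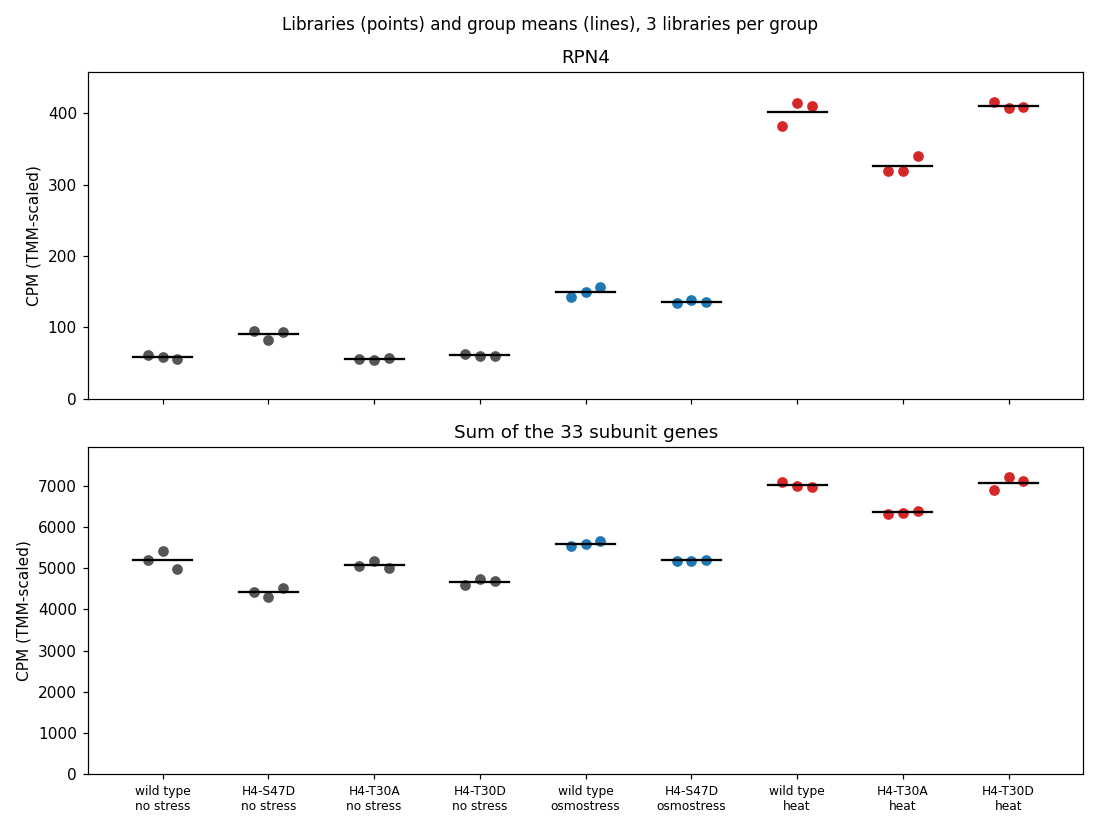
RPN4 level (top) and summed level of the 33 subunit genes (bottom) in CPM on a linear axis from 0, with 1 point per library and a line at the mean of the 3 libraries of each group. RPN4 averages 402 CPM in heat-stressed wild-type cells against 58.6 CPM without stress, while the subunit sum averages 7024 against 5200 CPM, and 5597 CPM after osmostress, although heat and osmostress hold near-equal shares of all counts (0.612% and 0.611%).

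The subunit genes themselves changed much less. Their summed level in non-stressed wild-type cells was 5200 ± 215 CPM (SD, n = 3). It was 7024 ± 64 CPM after heat, 35.1% higher, and 5597 ± 54 CPM after osmostress, 7.64% higher. Neither stressed group overlapped the non-stressed one. The gap between the stresses depended on the scaling, since as a share of all counts the subunit genes held 0.470 ± 0.053% without stress, 0.612 ± 0.031% after heat and 0.611 ± 0.026% after osmostress. In non-stressed wild-type cells the levels per kb of coding length ran from 60.4 CPM for RPN5 to 329 CPM for PUP3, a 5.45-fold range. The medians of the alpha and beta rings were 223 and 232 CPM per kb and those of the RPT and RPN genes 141 and 100 CPM per kb. RPN10 at 233 CPM per kb was the one RPN gene at the level of the rings. The range was 3.65-fold after heat and 3.64-fold after osmostress, with PUP3 highest and RPN9 lowest after heat, and PRE7 highest and SEM1 lowest after osmostress.

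**Figure D3:**
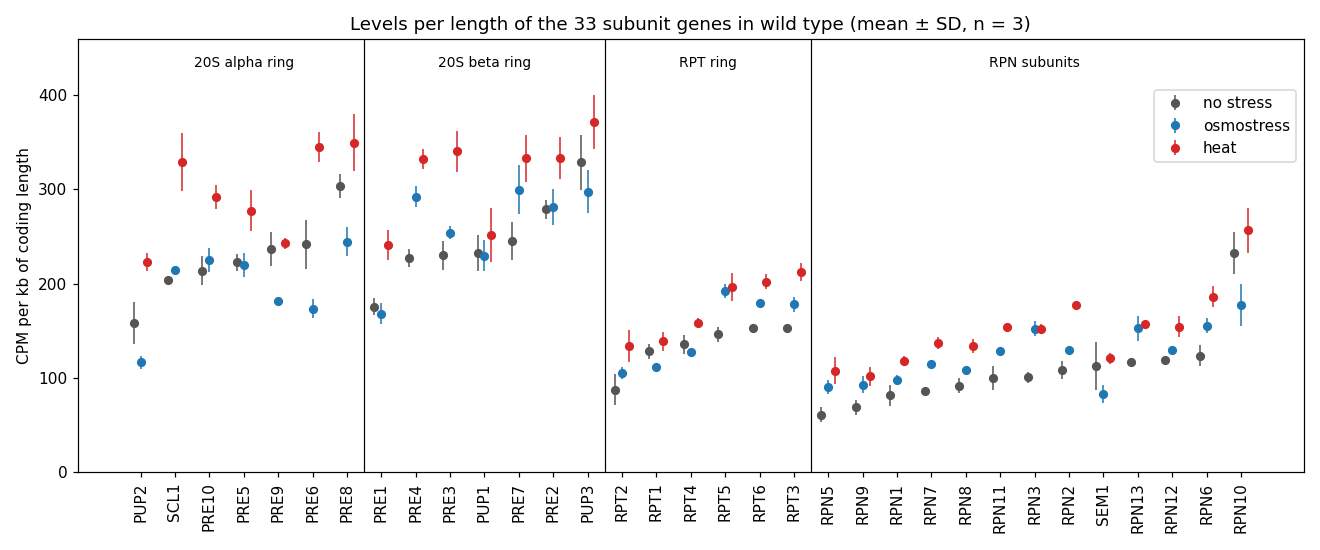
Level per kb of coding length (vertical axis, CPM per kb, linear from 0) of each subunit gene in wild-type cells without stress, after osmostress and after heat, as mean ± SD over 3 libraries, ordered within each role by the non-stressed level. Without stress every core gene lies above every RPT and RPN gene except RPN10.

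Heat raised the subunit genes broadly. The estimate was positive for all 33 genes, except that PRE9 was at -0.03, -0.04 and -0.02 with DESeq2 size factors, upper-quartile scaling and library totals, and 28 of them were called higher and none lower, where 41.7% of all genes tested were higher and 36.4% lower. The median log2 fold change was 0.45 against 0.08 over all genes. By role, 6 of 7 alpha ring, 6 of 7 beta ring, 5 of 6 RPT and 11 of 13 RPN genes were called higher, with medians of 0.45, 0.44, 0.41 and 0.57. RPN5, a lid subunit, stood at 87.7, 86.4 and 68.4 CPM without stress and at 132, 134 and 166 CPM after heat (log2 fold change 0.83 ± 0.12, edgeR adjusted p = 2.01e-07). RPN2, a large scaffold of the base, stood at 309, 331 and 277 CPM without stress and at 489, 511 and 510 CPM after heat (0.72 ± 0.07, edgeR adjusted p = 9.89e-11). For both genes the heat libraries lay above all non-stressed ones. The smallest estimates belonged to PRE9, the one alpha subunit that yeast can live without, at 178, 200 and 174 CPM against 192, 191 and 184 CPM (0.04 ± 0.07, edgeR adjusted p = 0.64), and to SEM1 at 28.2, 37.9 and 24.6 CPM against 34.3, 31.5 and 31.8 CPM (0.10 ± 0.16, edgeR adjusted p = 0.579). In these 2 genes the groups overlapped. PUP1, the beta subunit with trypsin-like activity, the ATPase gene RPT1 and the ubiquitin receptor gene RPN10 were the other 3 not called, at 0.11, 0.11 and 0.14. RPN4, on the same scale, was at 2.78.

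After osmostress some subunit genes were higher and others lower. Of the 33, 17 were called higher, 7 lower and 9 neither, with 40.3% of all genes higher and 36.2% lower, and the median of 0.14 stood beside 0.08 over all genes. The alpha ring had 0 genes higher and 4 lower (PRE8, PRE9, PRE6 and PUP2, median -0.31), and the beta ring 3 higher and 0 lower (median 0.01). The RPT ring had 4 higher and 1 lower (RPT1, -0.20), and the RPN genes 10 higher and 2 lower (RPN10, -0.39, and SEM1; median 0.33). RPN3, a lid subunit, rose from 166, 148 and 160 CPM to 251, 240 and 226 CPM (0.60 ± 0.06, edgeR adjusted p = 3.44e-10). RPN5 rose from the levels given above to 117, 131 and 112 CPM (0.57 ± 0.12, edgeR adjusted p = 6.84e-05). Both genes had every osmostressed library above every non-stressed one. PRE6, an alpha ring gene, fell from 171, 207 and 176 CPM to 132, 125 and 141 CPM (-0.48 ± 0.08, edgeR adjusted p = 3.36e-06), without overlap. SEM1 stood at 20.5, 25.1 and 21.0 CPM after osmostress (-0.45 ± 0.16, edgeR adjusted p = 0.0107), its groups overlapped, and the call was lost without non-stressed wild-type replicate 2 (-0.25, adjusted p = 0.162) or osmostressed wild-type replicate 1 (-0.38, adjusted p = 0.0583). Scaling by library totals alone raised the median of all genes under osmostress to 0.35 and left 1 member called lower.

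**Figure D4:**
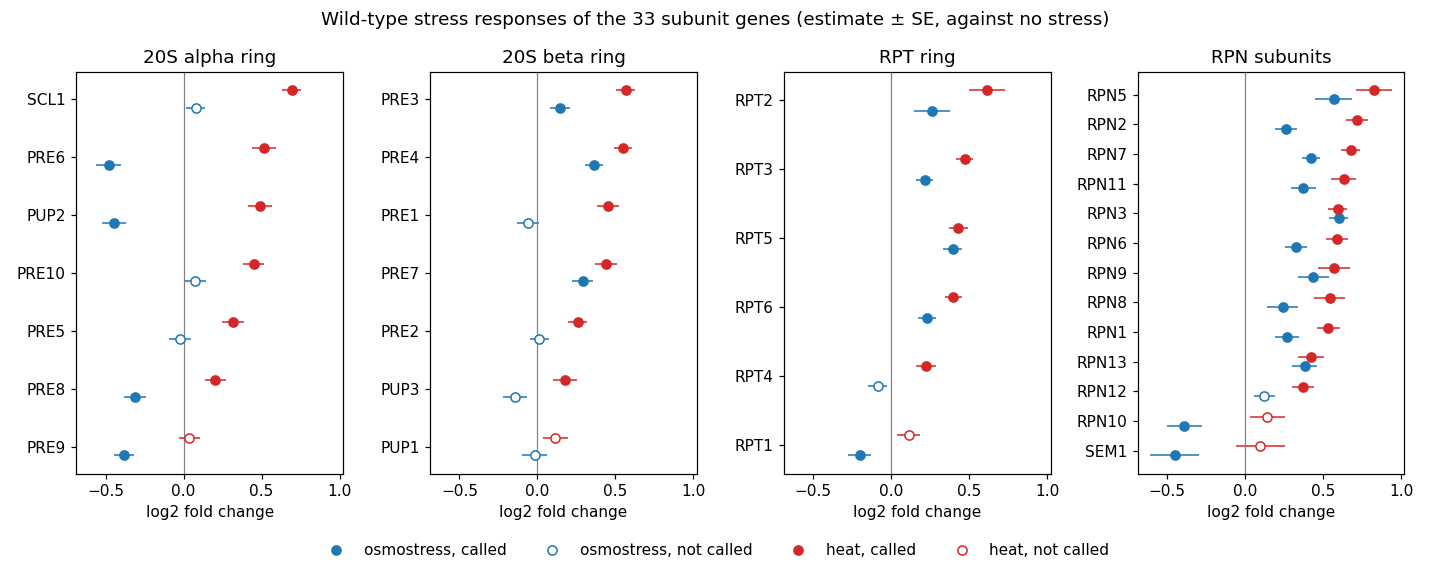
Log2 fold change after osmostress (blue) and heat (red) against no stress in wild-type cells for each subunit gene, by role, with bars of 1 SE and filled points where the adjusted p was under 0.05. All 33 heat estimates are above 0 (PRE9 falls below it, to between -0.04 and -0.02, under the 3 other scalings), while the alpha ring genes PRE8, PRE9, PRE6 and PUP2 lie below 0 after osmostress.

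Compared directly, 27 of the 33 subunit genes were higher after heat than after osmostress and none was lower, beside 29.0% and 34% of all genes. All 7 alpha ring genes were among the 27, and the median was 0.30 against -0.04 over all genes. PRE6 stood at 256, 278 and 258 CPM after heat, 0.99 ± 0.08 above osmostress on the log2 scale (edgeR adjusted p = 6.41e-12). PUP2, another alpha ring gene, stood at 177, 166 and 180 CPM after heat and 94.6, 85.0 and 93.3 CPM after osmostress (0.94 ± 0.08, edgeR adjusted p = 2.33e-11). Both genes were separated without overlap. At the other end were RPN3 (-0.01 ± 0.06, edgeR adjusted p = 0.917) and the ATPase gene RPT5 (0.03 ± 0.06, adjusted p = 0.633), with 235, 262 and 272 CPM after heat and 251, 260 and 240 CPM after osmostress for RPT5. This comparison depended on the scaling. With library totals alone the median of all genes became -0.37 and that of the subunit genes -0.02, and 6 members were called higher and 4 lower.

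The responses were also set against the promoter sequence. The 27 genes with a PACE had a median log2 fold change of 0.49 after heat, with 25 called higher, and the 6 without it a median of 0.23, with 3 called higher. After osmostress the medians were 0.22 and -0.02, with 15 and 2 genes called higher and 5 and 2 lower. The ranges overlapped in both stresses, and the order was not the same throughout. For heat against osmostress the medians were 0.26 with and 0.32 without a PACE, and for the heat response of H4-T30D cells 0.61 and 0.63. Outside the members, 72 promoters held the letters, and of the 70 such genes tested 44 were higher and 16 lower after heat (median 0.67) and 33 higher and 19 lower after osmostress (median 0.12), beside 41.7% higher and 36.4% lower of all genes after heat and 40.3% and 36.2% after osmostress.

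In H4-S47D cells without stress RPN4 was higher and 22 subunit genes were lower. RPN4 was 1.54-fold higher than in wild-type cells, with the CPM given above (log2 difference 0.62 ± 0.06, edgeR adjusted p = 2.73e-09, no overlap). Of the 33 subunit genes 22 were lower, 11 not called and none higher, beside 25.3% of all genes lower and 26.6% higher, and the median was -0.24 against 0.00 over all genes. All 7 alpha ring genes were lower, with 4 beta ring, 4 RPT and 7 RPN genes. RPN10 fell the most, from 170, 188 and 206 CPM to 103, 148 and 103 CPM (-0.67 ± 0.11, edgeR adjusted p = 1.25e-05), and PRE6 fell to 114, 129 and 125 CPM (-0.59 ± 0.08, edgeR adjusted p = 4.04e-07). Neither gene's groups overlapped. The most positive subunit estimates were those of RPN5 (0.11 ± 0.12, edgeR adjusted p = 0.462), with 92.8, 64.5 and 104 CPM in H4-S47D cells, and of the ATPase gene RPT2 (0.07 ± 0.12, adjusted p = 0.615), with 125, 96.8 and 140 CPM beside 123, 131 and 89.7 CPM in wild type. Both overlapped wild type, and RPN5 was called higher without H4-S47D replicate 2 (0.28, adjusted p = 0.0196). The negative median held under each of the 4 scalings, the smallest being -0.06 with library totals alone, where 6 genes were called lower. With only the libraries compared in the fit, 10 were.

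The osmostress response of RPN4 was smaller in H4-S47D cells, and 10 subunit genes had a more positive one. RPN4 rose by 0.59 on the log2 scale in H4-S47D cells against 1.35 in wild-type cells, and this difference passed the test (-0.76 ± 0.09, edgeR adjusted p = 8.89e-08), beside 20.7% of all genes with a lower and 12.9% with a higher response. The 10 subunit genes stood beside none with a more negative response, with a median difference of 0.16 against -0.06 over all genes. They were PRE9, PRE6 and PUP2 of the alpha ring, PRE2 of the beta ring, the beta subunit with chymotrypsin-like activity, the ATPase genes RPT1, RPT3 and RPT4, and RPN6, SEM1 and RPN11, the gene of the deubiquitinase of the lid. A more positive response was not always a larger one. PRE9, PRE6, PUP2, RPT1 and SEM1 had been called lower after osmostress in wild-type cells, and in H4-S47D cells they were at -0.04, -0.11, 0.11, 0.15 and 0.23 and none was called, while RPT3, RPN6 and RPN11 were called higher in both strains. All 10 except SEM1 were already lower in non-stressed H4-S47D cells. SEM1 had the largest difference (0.69 ± 0.22, edgeR adjusted p = 0.0159), standing at 27.7, 20.5 and 37.5 CPM without stress and 37.4, 30.0 and 34.1 CPM after osmostress in H4-S47D cells. PUP2 followed (0.56 ± 0.11, adjusted p = 0.000343), at 85.2, 78.8 and 94.7 CPM and then 91.9, 90.7 and 96.4 CPM, and its own response was not called (0.11, edgeR adjusted p = 0.222). The most negative subunit estimates, RPN2 (-0.19 ± 0.10, edgeR adjusted p = 0.132) and RPN9 (-0.18 ± 0.14, adjusted p = 0.351), were not called. RPN2 stood at 304, 280 and 296 CPM before and 317, 282 and 326 CPM after osmostress in H4-S47D cells. RPN9, a lid subunit, stood at 86.0, 69.2 and 88.9 CPM before and 106, 96.1 and 89.9 CPM after. The count of 10 became 5 without non-stressed wild-type replicate 2 and 6 without osmostressed H4-S47D replicate 3. SEM1 lost its call without non-stressed wild-type replicate 2 (0.49, adjusted p = 0.09) or non-stressed H4-S47D replicate 2 (0.50, adjusted p = 0.0532).

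Taken by itself, the osmostress response of H4-S47D cells raised 19 subunit genes and lowered 1, the beta ring gene PRE1 (-0.20), beside 35.9% and 36.5% of all genes. Against osmostressed wild-type cells, 3 subunit genes were higher (SEM1, RPN5 and RPT2) and 11 lower, beside 15.8% and 24.0% of all genes. SEM1 was 0.60 ± 0.16 higher (edgeR adjusted p = 0.00292) and RPN5 0.31 ± 0.11 higher (adjusted p = 0.0288), the latter at 160, 149 and 140 CPM. RPN10, at 100, 120 and 103 CPM against 145, 124 and 160 CPM, was 0.41 lower on the log2 scale (-0.41 ± 0.11, edgeR adjusted p = 0.00519). RPN12, a lid subunit, was lower at 78.1, 82.1 and 85.1 CPM against 106, 110 and 104 CPM (-0.39 ± 0.07, edgeR adjusted p = 5.7e-05). None of these 4, taken from the ends of the estimates, overlapped between the strains. Of the 33 subunit genes, 3 lay above and 17 below wild type without overlap, and the share over all genes was not computed. The median of -0.11 and the counts of calls depended on the scaling, since with upper-quartile scaling 5 members were called higher and 4 lower and with library totals alone 13 and 0, and the median became 0.02 with upper-quartile scaling and 0.14 with library totals alone. Without osmostressed H4-S47D replicate 1, one of the libraries with reads of deleted markers, 1 gene was higher and 6 were lower. The counts were 1 higher and 5 lower without replicate 2, 7 lower without replicate 3, 1 higher without osmostressed wild-type replicate 1, and 1 higher and 6 lower without osmostressed wild-type replicate 3. RPN5 lost its call without either of the first 2 H4-S47D replicates or wild-type replicates 1 or 3 (adjusted p between 0.0539 and 0.111).

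No member was called between H4-T30A and wild-type cells without stress. The count was 0 of 34 by edgeR and by DESeq2, beside 0.612% of all genes called higher and 0.773% lower. At an unadjusted p under 0.05 stood 1 subunit gene, PUP1, and the share of all genes at that looser threshold was not computed. RPN4 stood at 55.6, 54.0 and 56.8 CPM (-0.08 ± 0.07, edgeR adjusted p = 0.583; 0.03 with library totals alone). RPN5, at 97.9, 86.6 and 91.1 CPM (0.18 ± 0.12, edgeR adjusted p = 0.462), and RPT2, at 130, 124 and 134 CPM (0.18 ± 0.12, adjusted p = 0.478), had the most positive estimates. PUP1, at 161, 163 and 159 CPM against 167, 186 and 196 CPM (-0.18 ± 0.08, edgeR adjusted p = 0.254), and RPN10, at 161, 184 and 156 CPM (-0.17 ± 0.11, adjusted p = 0.479), had the most negative ones, and of these 4 only PUP1 did not overlap wild type.

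Heat in H4-T30A cells raised RPN4 by 2.55 on the log2 scale and 26 of the 33 subunit genes, beside 40.1% of all genes. The interaction test called 0 of the 34 responses different from wild type, by edgeR and by DESeq2. Beside this, 0.177% of all genes were called with a higher and 0.306% with a lower response. At an unadjusted p under 0.05 in edgeR stood 4 members, and the share of all genes at that looser threshold was not computed. The estimate for RPN4 was -0.22 ± 0.09 (edgeR adjusted p = 0.332). Those of the subunit genes ran from -0.34 for RPT2 (± 0.16, edgeR adjusted p = 0.443), at 157, 165 and 148 CPM after heat, and -0.23 for RPN5 (± 0.16, adjusted p = 0.641), at 134, 144 and 141 CPM, to 0.03 for RPN9 (adjusted p = 0.962) and RPN3 (adjusted p = 0.931). Against heat-stressed wild-type cells RPN4 was lower by 0.30 on the log2 scale (-0.30 ± 0.06, edgeR adjusted p = 0.00186), without overlap, but the call was lost with library totals alone (-0.18, adjusted p = 0.268). Of the subunit genes 4 were lower, PRE10, PUP3, RPT5 and RPT6, and none higher, beside 4.54% and 2.09% of all genes, and 32 of the 33 estimates were negative (22 with library totals alone). The subunit median was -0.14, and that of all genes was also below 0, at -0.04. RPT5 stood at 215, 213 and 216 CPM (-0.26 ± 0.06, edgeR adjusted p = 0.00745). RPN10, at 174, 178 and 166 CPM, had the most negative estimate and was not called (-0.26 ± 0.11, edgeR adjusted p = 0.166). Neither overlapped wild type. RPN9, at 117, 132 and 133 CPM (0.08 ± 0.10, edgeR adjusted p = 0.694), and RPN8, a lid subunit at 130, 128 and 143 CPM (-0.02 ± 0.10, adjusted p = 0.938), stood at the other end and overlapped it. The 5 calls with RPN4 became 2 without wild-type heat replicate 1 or 2 or any of the 3 H4-T30A heat libraries, and 3 without the 3 libraries with reads of deleted markers, where RPT5 lost its call (adjusted p = 0.0596). They became 2 with DESeq2 size factors, 1 with upper-quartile scaling, 0 with library totals alone and 1 with only the libraries compared.

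In H4-T30D cells without stress about as many subunit genes were called lower as were not called. RPN4 was not called, at 62.6, 60.3 and 59.8 CPM (0.06 ± 0.06, edgeR adjusted p = 0.544). Of the 33 subunit genes 16 were lower, 17 not called and none higher, beside 15.3% and 16.3% of all genes, and the median was -0.16 against 0.01 over all genes. They were 4 alpha ring, 5 beta ring, 2 RPT and 5 RPN genes. SEM1 stood at 18.6, 20.4 and 23.5 CPM (-0.54 ± 0.16, edgeR adjusted p = 0.00974) and RPN10 at 143, 144 and 134 CPM (-0.42 ± 0.11, adjusted p = 0.00516), both below every wild-type library. RPT2, at 117, 125 and 129 CPM (0.11 ± 0.12, edgeR adjusted p = 0.507), and RPN5, at 81.5, 86.3 and 89.7 CPM (0.08 ± 0.12, adjusted p = 0.62), had the most positive estimates and overlapped wild type. The count of 16 became 10 without non-stressed wild-type replicate 1, 7 without non-stressed wild-type replicate 2, 7 without H4-T30D replicate 1 and 10 without H4-T30D replicate 3, and it was 14 without the libraries with reads of deleted markers. SEM1 lost its call without non-stressed wild-type replicate 2 (-0.34, adjusted p = 0.121) or H4-T30D replicate 1 (-0.48, adjusted p = 0.0522). With library totals alone, which raised the median of all genes to 0.21, the subunit median was 0.04, 1 member was called lower and 2 higher, RPN4 among them (0.25, adjusted p = 0.0362), and RPN10 lost its call (-0.21, adjusted p = 0.0552). As a share of all counts the subunit genes held 0.485 ± 0.013% in H4-T30D and 0.470 ± 0.053% in wild-type cells.

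Heat in H4-T30D cells raised all 33 subunit genes, beside 37.5% of all genes, with a median of 0.61, and RPN4 by 2.75. The summed subunit level rose by 51.4% in H4-T30D cells, 35.1% in wild-type cells and 25.2% in H4-T30A cells. In that order it went from 4680 to 7084, 5200 to 7024 and 5079 to 6357 CPM. The gaps were smaller as shares of all counts, at 0.485% to 0.650%, 0.470% to 0.612% and 0.496% to 0.602%. The H4-T30D sum was 10% below that of wild type without stress and 0.848% above it after heat. The response exceeded that of wild type in 4 subunit genes and was lower in none, beside 4.40% and 9.62% of all genes. They were PRE9 (0.34 ± 0.10, edgeR adjusted p = 0.015), PRE2 (0.34 ± 0.09, adjusted p = 0.0076), RPN12 (0.29 ± 0.10, adjusted p = 0.0407) and the ubiquitin receptor gene RPN13 (0.38 ± 0.12, adjusted p = 0.0284). RPN13 went from 40.9, 46.9 and 43.7 CPM to 74.3, 77.6 and 76.4 CPM in H4-T30D cells and from 56.3, 56.0 and 52.7 CPM to 71.7, 74.6 and 75.02 CPM in wild-type cells. The non-stressed levels of the 2 strains were apart and the heat-stressed ones overlapped. Per kb of coding length, PRE9 averaged 181.5 CPM without stress and 235.8 CPM after heat in H4-T30D cells, against 236.8 and 242.7 CPM in wild-type cells. PRE2 averaged 247.5 and 375.0 CPM per kb against 278.7 and 333.2, and RPN12 105.7 and 167.5 against 119.1 and 154.2. SEM1 had the largest estimate and was not called (0.64 ± 0.22, edgeR adjusted p = 0.0523), at 28.9, 39.1 and 36.5 CPM after heat. RPT5 (-0.10 ± 0.09, edgeR adjusted p = 0.459), at 197, 199 and 203 CPM before and 253, 258 and 239 CPM after heat, and RPN1, the other large scaffold gene (-0.05 ± 0.11, adjusted p = 0.813), at 236, 244 and 240 CPM before and 351, 342 and 316 CPM after, had the most negative ones. RPN4 differed by -0.02 ± 0.09 (edgeR adjusted p = 0.888). The count of 4 became 7 without non-stressed wild-type replicate 1, 1 without non-stressed wild-type replicate 2 or H4-T30D heat replicate 3, and 2 without wild-type heat replicate 2. It was 0 with library totals alone, 8 with only the libraries compared, 11 with upper-quartile scaling, 13 with DESeq2 size factors and 18 with DESeq2. RPN13 lost its call with library totals alone (0.25, adjusted p = 0.298) and, at adjusted p between 0.0506 and 0.0602, without non-stressed wild-type replicate 2, wild-type heat replicate 1 or 2, non-stressed H4-T30D replicate 1 or H4-T30D heat replicate 2 or 3.

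Between heat-stressed H4-T30D and wild-type cells, PRE6 was the one member called, at 201, 233 and 232 CPM against 256, 278 and 258 CPM (-0.25 ± 0.08, edgeR adjusted p = 0.0307), beside 8.70% of all genes lower and 5.01% higher. The call was lost without wild-type heat replicate 2, without H4-T30D heat replicate 1 and without the libraries with reads of deleted markers (adjusted p = 0.141, 0.201 and 0.0686). It was also lost with DESeq2 size factors, upper-quartile scaling, library totals, only the libraries compared and DESeq2 (adjusted p between 0.0557 and 0.232). PRE2, at 323, 314 and 335 CPM, had the most positive estimate and lay above wild type in every library without passing the test (0.17 ± 0.06, edgeR adjusted p = 0.0575), and it passed without wild-type heat replicate 1 (0.23, adjusted p = 0.0247), with a minimum count of 50 (adjusted p = 0.0412), with DESeq2 size factors (0.042), upper-quartile scaling (0.00476) and library totals (0.00605) and with DESeq2 (0.00789). RPN9, at 154, 122 and 129 CPM (0.17 ± 0.10, edgeR adjusted p = 0.283), and RPN10, at 164, 189 and 192 CPM (-0.19 ± 0.11, adjusted p = 0.283), overlapped wild type.

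**Figure D5:**
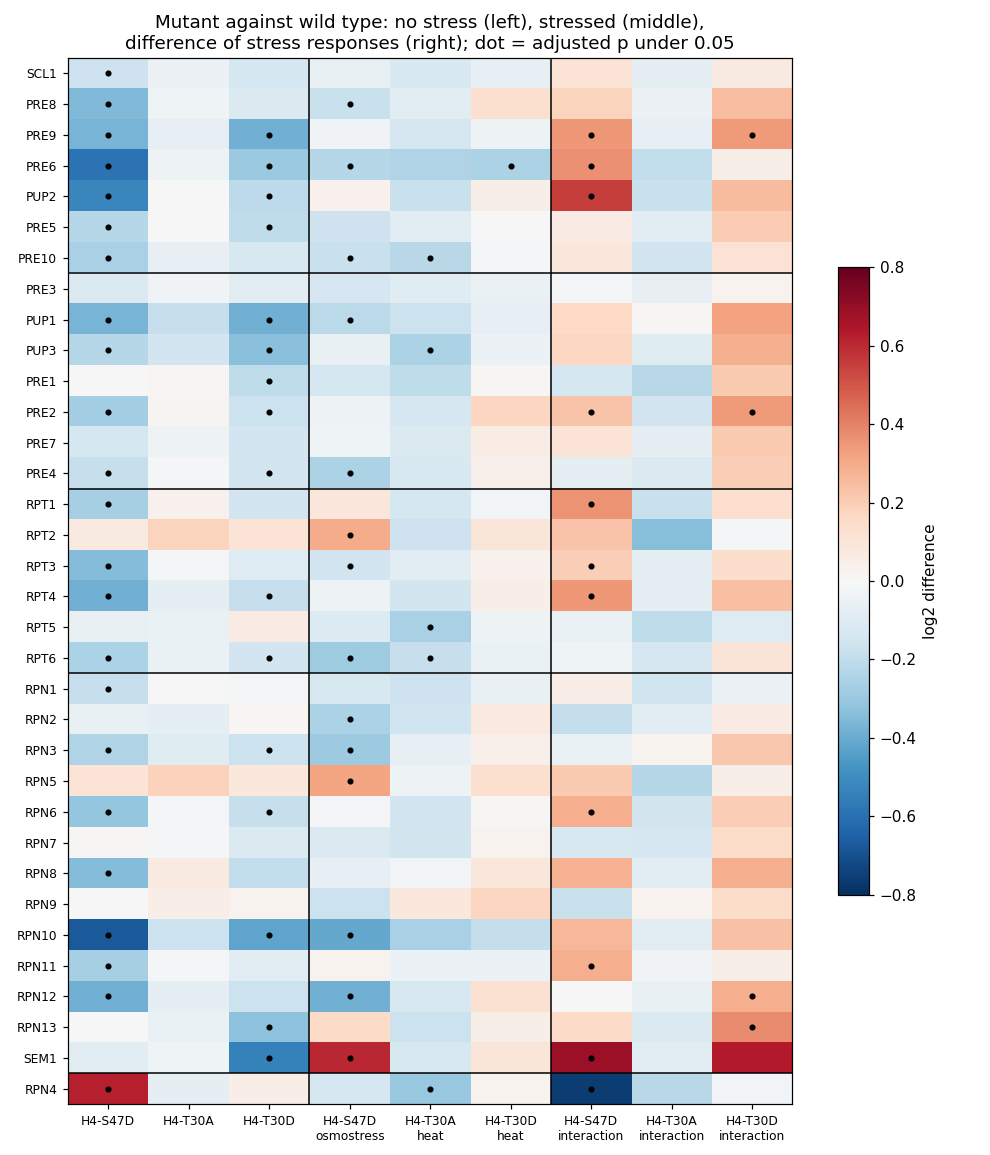
Log2 difference of each member between mutant and wild-type cells without stress (left 3 columns), after stress (middle 3) and between their stress responses (right 3), with red for higher and blue for lower in the mutant and a dot where the adjusted p was under 0.05. In the first column RPN4 (0.62) stands against the subunit genes (median -0.24), and the H4-T30A columns hold few dots.

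Genes that work with the proteasome also changed in the wild-type responses, in which 40.3% of all genes were higher and 36.2% lower after osmostress (median 0.08) and 41.7% and 36.4% after heat (median 0.08). Of 16 assembly and associated factors, 9 were higher and 1 lower after osmostress (median 0.43), and 12 higher and 3 lower after heat (median 0.40). TMA17, a chaperone of the regulatory particle, rose by 3.54 ± 0.12 on the log2 scale after osmostress and 3.39 ± 0.12 after heat. NAS2, another such chaperone, rose by 1.71 ± 0.09 after osmostress (edgeR adjusted p = 4.83e-17), and HUL5, a ubiquitin ligase bound to the proteasome, by 1.87 ± 0.11 after heat (adjusted p = 1.25e-15). In the other direction IRC25, one partner of a core assembly chaperone, fell by 0.39 after osmostress (-0.39 ± 0.10) and by 0.42 after heat (-0.42 ± 0.10), and POC4, the other partner, stood at -0.28 ± 0.14 after osmostress (edgeR adjusted p = 0.07) and fell by 1.51 after heat (-1.51 ± 0.16).

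Of 14 genes of ubiquitin and of substrate delivery, 11 were higher and 3 lower after osmostress (median 0.66), and 12 higher and 1 lower after heat (median 0.80). These counts, and those of the lists of 4 genes that follow, stand beside 40.3% of all genes higher after osmostress and 41.7% after heat. The polyubiquitin gene UBI4 went from 218 ± 13 CPM to 929 ± 34 CPM after osmostress and 5486 ± 291 CPM after heat (SD, n = 3). The deubiquitinase gene DOA4 rose by 1.84 ± 0.10 and 1.74 ± 0.10. RAD23, which carries ubiquitinated proteins to the proteasome, fell by 1.11 after osmostress (-1.11 ± 0.08) and by 0.39 after heat (-0.39 ± 0.08), and DSK2, another such carrier, was at -0.69 ± 0.12 and 0.05 ± 0.11. UBI4 and the gene of the ubiquitin-activating enzyme, UBA1, carried the PACE letters, as did CDC48, ECM29 and YAP1. The 4 genes listed for the turnover of Rpn4 were all higher after heat, led by UBR2 (1.35 ± 0.13) and UBR1 (0.76 ± 0.09), and 3 were higher and RAD6 lower (-0.47 ± 0.08) after osmostress, led by UBR2 (0.53 ± 0.14). The 4 genes of factors acting on the RPN4 promoter were higher in both stresses, with HSF1 (1.104 ± 0.10) and YAP1 (0.61 ± 0.08) leading after heat and PDR3 (1.141 ± 0.10) and PDR1 (0.42 ± 0.07) after osmostress.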

How the data were processed

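RNA from 4 yeast strains was sequenced with a stranded 50-base single-end protocol. The authors mapped the reads with TopHat2 2.1.0 to sacCer3 and used featureCounts 1.5.1 to count reads with a unique position on Ensembl R64-1-1 genes (strand setting not given in the sources used here). The deposited values are raw counts per gene, without normalization. No member overlaps another annotated gene in the R64 annotation of RefSeq, to which 34 of 34 members and 6007 of 6746 identifiers matched by locus tag.

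Counts were analysed with edgeR 4.0.16 (limma 3.58.1) in R 4.3.3. The filterByExpr rule (minimum count 10) retained 6209 genes for testing and set 537 aside. TMM factors ran from 0.819 to 1.32. All 27 libraries entered one quasi-likelihood fit in which each group had its own mean (common dispersion 0.00653), and 12 comparisons, with the mutants' own responses beside them, were tested against 0. The 2 wild-type responses were also tested against a log2 fold change of 1 with glmTreat. The Benjamini-Hochberg adjusted p over all tested genes had to be under 0.05 for a gene to be called. An interaction is the difference between the log2 responses of a mutant and wild type. CPM were taken on the scaled library sizes. Replicate libraries differed by 2.1 to 38.5 times the chi-square of counting error, so none was treated as a copy of another. The pairs of non-stressed wild-type libraries, the shared controls, were among the least alike, at 24.7, 38.5 and 29.7. Those of non-stressed H4-S47D stood at 19.1, 9.93 and 35.9, and those of the H4-T30A and H4-T30D groups ran from 2.1 to 11.1.

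The members chosen for values by library were RPN4 and, in each comparison, the 2 with the largest positive and the 2 with the largest negative estimate. Not every library of each comparison is printed for them. PRE9, PRE2 and RPN12 in the H4-T30D interaction were named after their values were seen. Members and lists were chosen with earlier results of these data known. Promoters were read from the R64 genome for 6002 coding genes. Alternatives were DESeq2 size factors, upper-quartile scaling, library totals, no filter, a minimum count of 50, the replicate number as a block, only the libraries compared, DESeq2 1.42.0 and each library left out. The omission of the 3 libraries with reads of deleted markers was added after seeing the data. The fit was tested on simulated counts in which a small set of genes was changed, equally up and down, in the wild-type heat group alone. This could not test the scaling, because after heat 41.7% of all genes were called higher and 36.4% lower. Python 3.11 with matplotlib 3.10.9 made the plots.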

Additional observations from a re-analysis of the deposited data

Results flagged for a closer look

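The osmostress response differed between H4-S47D and wild-type cells in 11 members by the interaction term of the edgeR fit. On the log2 scale the differences were -0.76 for RPN4, 0.69 for SEM1, 0.56 for PUP2, 0.37 for PRE6, 0.36 for RPT1, 0.35 for RPT4, 0.34 for PRE9, 0.29 for RPN6, 0.29 for RPN11, 0.23 for PRE2 and 0.20 for RPT3. The heat response differed between H4-T30D and wild-type cells in 4 members, by 0.38 for RPN13, 0.34 for PRE9, 0.34 for PRE2 and 0.29 for RPN12.

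Outside the members, reads of MET15, which the labels give as deleted, numbered 63 in wild-type heat replicate 3, 59 in osmostressed H4-S47D replicate 1 and 32 in non-stressed H4-T30D replicate 2, against 0 or 1 in the other libraries. TRP1 averaged 294 CPM in non-stressed and 222 CPM in osmostressed H4-S47D cells, although the labels give a trp1 allele that the other strains also carry. The part of the MET15 reads in the members' results was not tested beyond the counts given without those libraries. That of TRP1 was not tested, and because every H4-S47D library expressed TRP1 it cannot be told apart from the H4-S47D mutation.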

How the results depend on the processing

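Counts here are of members called, RPN4 included. The order is wild-type stress, then mutants without stress, then interactions, then stressed mutants. With DESeq2 size factors the H4-T30D interaction had 13 higher, heat-stressed H4-T30A 2 lower, and heat-stressed H4-T30D 1 higher and 0 lower. With upper-quartile scaling, H4-T30D without stress had 7 lower, the H4-T30D interaction 11 higher, osmostressed H4-S47D 5 higher and 4 lower, heat-stressed H4-T30A 1 lower, and heat-stressed H4-T30D 2 higher and 0 lower. With library totals alone, osmostress had 1 lower, heat against osmostress 6 higher and 4 lower, H4-S47D without stress 6 lower, H4-T30D without stress 2 higher and 1 lower, the H4-T30D interaction 0 higher, osmostressed H4-S47D 13 higher and 0 lower, heat-stressed H4-T30A 0 lower, and heat-stressed H4-T30D 2 higher and 0 lower. Without a filter heat-stressed H4-T30A had 2 lower, and with a minimum count of 50 it had 3 lower and heat-stressed H4-T30D 1 higher. With only the libraries compared, H4-S47D without stress had 10 lower, H4-T30D without stress 7 lower, the H4-T30D interaction 8 higher, osmostressed H4-S47D 6 lower, heat-stressed H4-T30A 1 lower and heat-stressed H4-T30D 0 lower. DESeq2 called 18 higher in the H4-T30D interaction, and 1 higher and 0 lower in heat-stressed H4-T30D. Without the 3 libraries with reads of deleted markers, osmostressed H4-S47D had 1 higher and 6 lower, heat-stressed H4-T30A 3 lower and heat-stressed H4-T30D 0 lower. The cause was not tested for any of these.

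Leaving out 1 library at a time, the counts ran from 15 to 17 higher and 5 to 8 lower for osmostress, 27 to 29 for heat, 25 to 28 for heat against osmostress, 1 to 2 higher and 19 to 21 lower for H4-S47D without stress, 7 to 14 lower for H4-T30D without stress, 5 to 10 higher for the H4-S47D interaction, 1 to 7 higher for the H4-T30D interaction, 1 to 3 higher and 5 to 10 lower for osmostressed H4-S47D, 2 to 4 lower for heat-stressed H4-T30A, and 0 to 1 higher and 0 to 1 lower for heat-stressed H4-T30D.

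Of 27 named values called, 11 lost the call in some alternative and 0 changed sign. Values that changed sign were not called with TMM. PRE9 after heat was at -0.025 with DESeq2 size factors, -0.044 with upper-quartile scaling, -0.018 with library totals, -0.043 with only the libraries compared and -0.026 with DESeq2. In the H4-T30D interaction, in the order DESeq2 size factors, upper-quartile scaling, only the libraries compared, DESeq2 and without the 3 libraries, RPN4 was at 0.054, 0.023, 0.061, 0.056 and 0.012 and RPN1 at 0.031, 0.00017, 0.039, 0.032 and 0.022. RPT5 for heat against osmostress was at -0.015 with upper-quartile scaling, -0.29 with library totals and -0.035 without the 3 libraries, and RPN3 at 0.0041 with only the libraries compared. The RPT5 value with library totals was itself called lower (edgeR adjusted p = 0.00749). RPN8 in heat-stressed H4-T30A was at 0.041 with upper-quartile scaling, 0.099 with library totals, 0.025 with only the libraries compared and 0.024 without the 3 libraries. With library totals RPN4 was at 0.033 in H4-T30A without stress and 0.12 in osmostressed H4-S47D. With 1 library left out, the ranges that crossed 0 were -0.0033 to 0.099 (PRE9) and -0.025 to 0.29 (SEM1) after heat, -0.078 to 0.018 (RPN3) and -0.026 to 0.092 (RPT5) for heat against osmostress, -0.071 to 0.21 (RPT2) and -0.054 to 0.28 (RPN5) in H4-S47D, -0.038 to 0.21 (RPT2) and -0.021 to 0.14 (RPN5) in H4-T30D, -0.0076 to 0.078 (RPN3) and -0.061 to 0.11 (RPN9) in the H4-T30A interaction, -0.059 to 0.030 (RPN4) and -0.15 to 0.046 (RPN1) in the H4-T30D interaction, -0.065 to 0.023 (RPN8) in heat-stressed H4-T30A and -0.0046 to 0.053 (RPN4) in heat-stressed H4-T30D.

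With the replicate number as a block, 17 members were higher and 7 lower after osmostress, 29 higher after heat, and 21 were lower in H4-S47D and 15 in H4-T30D cells without stress, with no count moved by over 1.5 times. Libraries with the same number did not deviate together (mean correlation -0.00256 over 108 pairs, against 0.00134 over 216 pairs with different numbers), so the numbers were not taken as pairs. The 3 libraries in a group limit the precision, and SEM1, with 285 to 720 counts a library, had the widest errors.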
